A study of Canis lupus familiaris with 8 samples.

Results

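A set of 142 genes was lower in hyperosmotic than in isosmotic MDCK I cells and higher again in hyperosmotic cells that had received either of the siRNAs against Nfat5. MDCK I is an established line of canine kidney epithelial cells. The genes were chosen by their measured values, out of 32704 genes in the table of read counts. A gene was taken when its mean normalised read count reached 400 in any group, when its log2 level in Neg-siRNA (500 mOsm) lay at least 1 below that in Neg-siRNA (300 mOsm), and when the log2 level with each Nfat5-siRNA lay at least 0.7 above Neg-siRNA (500 mOsm). A normalised read count is the number of reads divided by the size factor of the library, and the log2 level was taken of the group mean plus 1. Of the 9951 genes that reached 400 in a group, 1048 were lowered at 500 mOsm, and 906 of these were not raised past the limit by both siRNAs. The limit was passed with 1 siRNA only by 146 lowered genes.

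The 8 libraries were made from polyadenylated RNA and fell into 4 groups of 2. All cells had been transfected with 100 nM siRNA. The control groups had received Neg-siRNA, an siRNA against Slc22a6, and were kept at 300 mOsm or moved to 500 mOsm. The other groups had received Nfat5-1-siRNA or Nfat5-2-siRNA, and were moved to 500 mOsm. The hyperosmotic medium held raffinose and was applied for 24 h. Cells of passage 15 gave replicate 1 in every group, and those of passage 17 gave replicate 2, so the spread given is that between cultures of 1 cell line. The libraries held 34564103 to 46043788 counted reads. Lower counts from fewer cells of a kind cannot be told apart from less RNA per cell in such bulk samples. The knockdown itself was not checked here, since no source used here pairs Nfat5 with an identifier of the table. Epithelial markers were not read for the same reason, and of the other markers AQP1, a water channel of the proximal tubule, was the only one paired. Its normalised read counts were 2.75 and 26.7 at 300 mOsm, 1181 and 1504 in Neg-siRNA (500 mOsm), 126 and 141 with Nfat5-1-siRNA, and 129 and 213 with Nfat5-2-siRNA. AQP1 thus moved opposite to the chosen genes, and its part in their values was not tested.

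Nfat5 is the transcription factor that drives the response of mammalian cells to hypertonicity. In the kidney medulla it raises transporters and enzymes that load the cell with organic osmolytes, such as the taurine transporter SLC6A6, the betaine transporter SLC6A12, the inositol transporter SLC5A3 and the aldose reductase AKR1B1. The genes of the set moved the opposite way. For scale, SLC6A12 was at 105 and 216 normalised reads at 300 mOsm, at 86873 and 75206 in Neg-siRNA (500 mOsm), and between 16867 and 32290 in the 4 Nfat5-siRNA libraries. On the osmoprotection list, 5 genes were paired with an identifier, namely SLC6A6, SLC6A12, SLC5A3, AKR1B1 and MRPS6, a neighbour of SLC5A3. Each was called higher in Neg-siRNA (500 mOsm) than at 300 mOsm, as were 11.3% of the 19835 genes tested. Lower calls against Neg-siRNA (500 mOsm) were made for 4 of them with Nfat5-1-siRNA (4.53% of all genes) and for 5 with Nfat5-2-siRNA (7.38% of all genes). The gene not called with Nfat5-1-siRNA was SLC5A3 (edgeR, adjusted p = 0.0716). These symbols come from the study's own list of regulated genes, so their direction is not independent evidence. Of all 860 genes that could be paired with a symbol, 50.3% were called higher at 500 mOsm, and 48.6% and 60% were called lower with Nfat5-1-siRNA and Nfat5-2-siRNA.

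Symbols were found for 94 of the 142 genes, again in the study's list, and 48 are known only by an identifier. The 94 were 10.9% of the 860 paired genes. The study describes its list as genes raised at 500 mOsm and lowered by both Nfat5-siRNAs, a description that the 94 do not match. What selected the paired genes is therefore not known here. Since only genes of that list could be paired, the counts of paired and called genes given for each gene list depend on it and are descriptions. Among the 860, 36.9% were called lower in Neg-siRNA (500 mOsm) than at 300 mOsm, and 23.5% and 26.6% were called higher with Nfat5-1-siRNA and Nfat5-2-siRNA. The median fall at 500 mOsm was 3.00-fold, and the deepest was 38.5-fold. The median rise over Neg-siRNA (500 mOsm) was 2.31-fold with Nfat5-1-siRNA and 2.67-fold with Nfat5-2-siRNA. As medians over the set, the normalised read count was 940 at 300 mOsm, 267 in Neg-siRNA (500 mOsm), 680 with Nfat5-1-siRNA and 745 with Nfat5-2-siRNA. The fall and both rises were read against the same 2 libraries of Neg-siRNA (500 mOsm), so that a low value there enters all of them. In 136 genes both of these libraries lay below the other 6, which held for 12.7% of the 9951 genes at that level. The edgeR quasi-likelihood test with Benjamini-Yekutieli adjustment called 132 of the 142 lower in Neg-siRNA (500 mOsm) than at 300 mOsm (9.23% of all genes tested). It called 80 higher with Nfat5-1-siRNA (3.4% of all genes) and 105 higher with Nfat5-2-siRNA (4.67% of all genes). With the passage as a replicate block, 138 were called higher with Nfat5-1-siRNA (9.61% of all genes). Leaving out a single library of either group lowered the count of 80 to 44 and 25 (without Neg-siRNA (500 mOsm) replicate 1 and 2) and to 42 and 17 (without Nfat5-1-siRNA replicate 1 and 2), and that of 105 to 67 without Neg-siRNA (500 mOsm) replicate 2. The same contrasts chose the genes, so these counts describe the set and nothing is read from them.

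**Figure D1:**
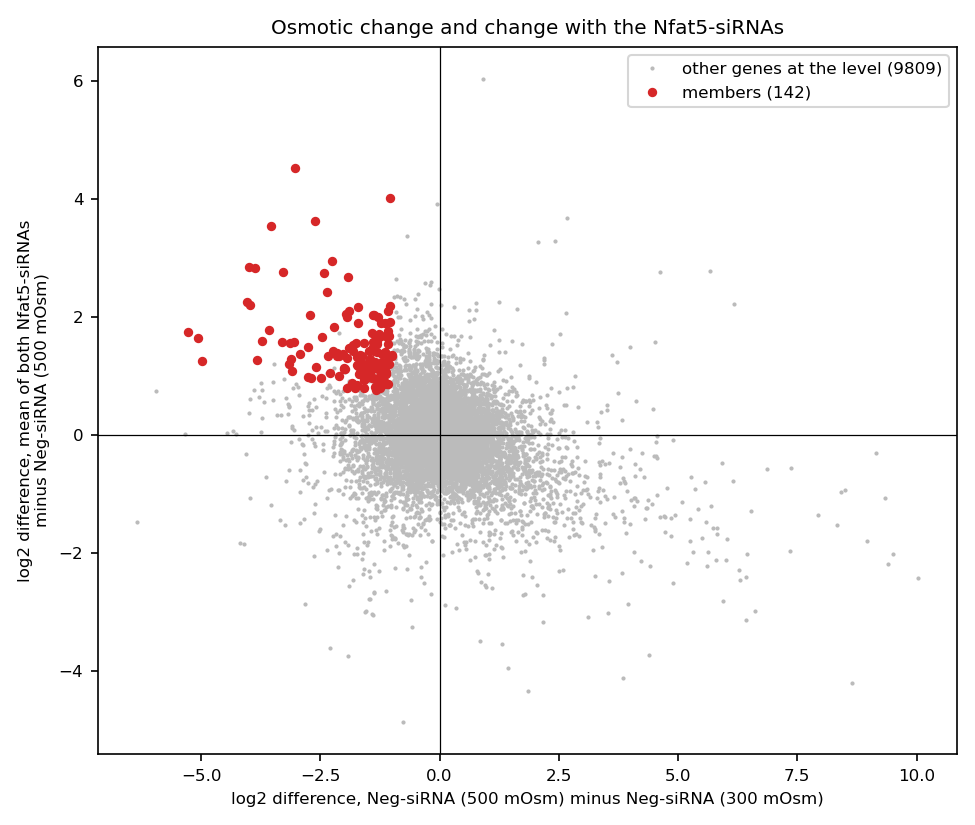
Log2 difference of Neg-siRNA (500 mOsm) from Neg-siRNA (300 mOsm) on the x axis against the mean log2 difference of both Nfat5-siRNAs from Neg-siRNA (500 mOsm) on the y axis, for the 9951 genes that reached a mean of 400 in any group. The 142 chosen genes (red) fill the upper left by the rule that chose them, with SLCO1A2 highest at a mean rise of 4.53.

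Near the limits of the rule the values ran on without a break. The falls just inside were -1.001, -1.01 (PRDM4) and -1.03 on the log2 scale, against -0.999 for the nearest lowered gene left out. The smaller of the rises was 0.71 for the gene just inside and 0.699 for COIL, a component of Cajal bodies, just outside. FZD5 entered with a highest group mean of 406, and the nearest gene outside had 394.

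The choice of genes was read in libraries that it had not used by applying the rule to 1 passage and reading the other. The rule found 169 genes in passage 15. In passage 17, 168 of these were lower in Neg-siRNA (500 mOsm) than at 300 mOsm, 157 were higher with both siRNAs, and 94 (55.6%) passed all limits again. Of all 9959 genes at that level, 50.7% were lower, 43.4% were higher with both siRNAs and 1.8% passed all limits. In the other direction the rule also found 169 genes in passage 17. All 169 were lower at 500 mOsm in passage 15, 161 were higher with both siRNAs, and 88 (52.1%) passed all limits, against 48.4%, 35.4% and 1.53% of all 9996 genes at that level. Within a passage the fall and the rises again share 1 library of Neg-siRNA (500 mOsm).

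Interferons switch on genes whose products tag proteins, bind viral RNA and stop translation. A list of interferon and antiviral genes held 57 symbols, of which 10 could be paired with an identifier, and 7 of those were in the set. The rest of the list was not read. ISG15, a ubiquitin-like protein that is joined to other proteins, was at 1569 and 2987 normalised reads at 300 mOsm, 253 and 442 in Neg-siRNA (500 mOsm), 1163 and 1572 with Nfat5-1-siRNA, and 1526 and 1433 with Nfat5-2-siRNA. Both hyperosmotic control libraries were below all others, and the Nfat5-siRNA libraries lay at or under the lower isosmotic library apart from 1572. EIF2AK2, the kinase PKR that halts translation upon binding double-stranded RNA, went from 1558 and 1682 normalised reads at 300 mOsm to 609 and 474 in Neg-siRNA (500 mOsm), with 995 and 940 under Nfat5-1-siRNA and 1015 and 807 under Nfat5-2-siRNA. All 4 Nfat5-siRNA libraries stood between the control groups. ZC3HAV1, the zinc finger antiviral protein, followed the same order with 2264 and 2052 at 300 mOsm, 632 and 589 in Neg-siRNA (500 mOsm), 1571 and 1938 with Nfat5-1-siRNA, and 1449 and 1623 with Nfat5-2-siRNA.

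Another 3 members of this list lie near each other on chromosome 33 of CanFam 3.1. PARP9 (chr33:25640915-25676775, minus strand) and DTX3L (chr33:25677076-25687590, plus strand) are transcribed away from each other with 300 bases between them. PARP14 (chr33:25763335-25801465, plus strand) begins 75744 bases after the end of DTX3L, with 1 other gene between. PARP9 and PARP14 belong to the family of ADP-ribosyltransferases, and DTX3L is a ubiquitin ligase that works as a pair with PARP9. PARP9 had 1275 and 1353 normalised reads at 300 mOsm, 293 and 263 in Neg-siRNA (500 mOsm), 700 and 667 with Nfat5-1-siRNA, and 973 and 660 with Nfat5-2-siRNA. DTX3L had 1758 and 1741, then 387 and 401, then 847 and 921, then 1302 and 964 in the same order of groups. These neighbours moved side by side, with falls of 4.71-fold and 4.44-fold. PARP14 fell further, by 8.78-fold, from 1470 and 1668 to 187 and 169, and reached 434 and 455 with Nfat5-1-siRNA and 723 and 514 with Nfat5-2-siRNA.

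None of the 7 antiviral genes came back to its isosmotic mean, and 85 of the 142 members stayed below theirs with both siRNAs. The percentage of the log2 fall that was undone had a median of 57.8 with Nfat5-1-siRNA (42.0 to 83.6) and of 69.3 with Nfat5-2-siRNA (47.4 to 77.04). The 3 paired genes of this list that were not in the set were HELZ2, IFI44L and TRIM25. IFI44L had 331 and 319 normalised reads at 300 mOsm, 6.61 and 14.1 in Neg-siRNA (500 mOsm), 86.4 and 61.2 with Nfat5-1-siRNA and 194 and 62.2 with Nfat5-2-siRNA, and stayed out through its level. Of these 3, 2 were called lower in Neg-siRNA (500 mOsm) than at 300 mOsm (9.23% of all genes and 36.9% of those paired), 3 higher with Nfat5-1-siRNA (3.4% and 23.5%) and 2 higher with Nfat5-2-siRNA (4.67% and 26.6%). HELZ2 was at 3407 and 4021, 2510 and 2226, 3744 and 4556, and 5690 and 5029 in the 4 groups in turn.

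Genes of the nucleolus and of ribosome and tRNA maturation made another group of 7, out of 15 paired symbols on a list of 57. MYC, the transcription factor that drives ribosome production and growth (chr13:25200392-25205878), was at 4487 and 4849 normalised reads at 300 mOsm, and at 1064 and 1394 in Neg-siRNA (500 mOsm). It reached 4220 and 5813 with Nfat5-1-siRNA and 12850 and 11783 with Nfat5-2-siRNA. The Nfat5-1-siRNA libraries straddled the isosmotic ones, while those of Nfat5-2-siRNA were above all 6 others. GAR1, a core protein of the particles that place pseudouridine in RNA, went from 853 and 926 to 417 and 298, and was at 891 and 901 and at 1100 and 889 with the siRNAs. RIOX1, a histone demethylase and ribosomal oxygenase of the nucleolus, went from 1308 and 841 to 394 and 374, with 765 and 858 and then 1286 and 1341. CD3EAP, a subunit of RNA polymerase I, went from 640 and 687 to 302 and 305, with 621 and 559 and then 1164 and 933. In these 3 genes at least 1 siRNA gave values inside or above the isosmotic range. CD3EAP shares 25 exonic bases with another gene, and the counting ignored strand.

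QTRT1 and QTRT2 are the subunits of the enzyme that inserts queuine into tRNA, and lie on chromosomes 20 and 33. QTRT1 was at 536 and 663 normalised reads at 300 mOsm, 167 and 189 in Neg-siRNA (500 mOsm), 424 and 508 with Nfat5-1-siRNA, and 561 and 612 with Nfat5-2-siRNA. QTRT2 was at 649 and 673, 293 and 210, 866 and 835, and 1316 and 1190 in the same groups. Its 4 Nfat5-siRNA values exceeded both isosmotic ones, whereas none of the QTRT1 values exceeded the higher isosmotic library. HGH1, a folding helper of translation elongation factor eEF2, was at 491 and 526, 183 and 205, 442 and 463, and 670 and 632. Over the 7 genes, the median share of the fall undone was 87.9% with Nfat5-1-siRNA and 126% with Nfat5-2-siRNA. The mean with Nfat5-2-siRNA was the higher in all 7, as it was in 96 of the 142 members. The 8 paired genes of the list outside the set were COIL, DDX56, EXOSC10, FTSJ3, NOP58, RRP8, UTP3 and ZNHIT6. Of these, 7 were called lower at 500 mOsm (9.23% of all genes and 36.9% of those paired). With Nfat5-1-siRNA 6 were called higher (3.4% and 23.5%), as were 6 with Nfat5-2-siRNA (4.67% and 26.6%). FTSJ3, a methyltransferase of pre-ribosomal RNA, was at 959 and 1066 at 300 mOsm, 567 and 505 in Neg-siRNA (500 mOsm), 1990 and 2052 with Nfat5-1-siRNA, and 2660 and 2450 with Nfat5-2-siRNA, and its level fell by 0.92 on the log2 scale, short of the limit.

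**Figure D2:**
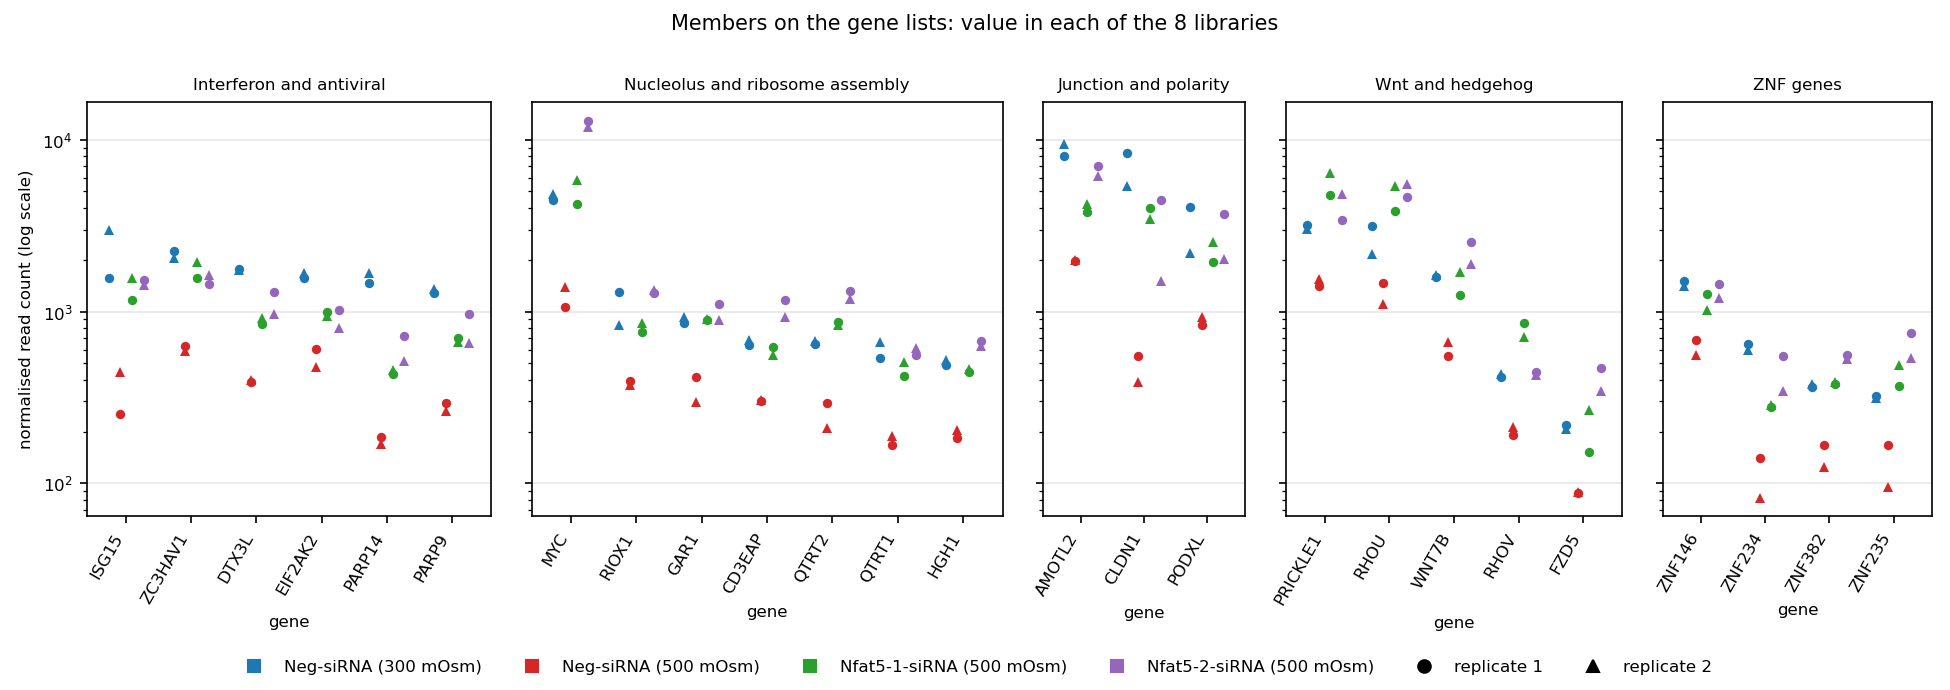
Normalised read count (log axis) of members on the gene lists in each of the 8 libraries, coloured by group, with circles for replicate 1 (passage 15) and triangles for replicate 2 (passage 17). Both Neg-siRNA (500 mOsm) libraries (red) are the lowest of each gene shown, by the choice of the genes, and the Nfat5-2-siRNA libraries of MYC at 12850 and 11783 stand above its other 6.

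Of the junction and polarity list 3 genes were in the set, of 4 paired. CLDN1 (chr34:22302592-22319496) encodes claudin-1, a sealing protein of tight junctions. It had 8349 and 5377 normalised reads at 300 mOsm, 553 and 387 in Neg-siRNA (500 mOsm), 4010 and 3435 with Nfat5-1-siRNA, and 4466 and 1512 with Nfat5-2-siRNA. Its fall was 14.6-fold, and 77.2% and 69.0% of it on the log2 scale was undone. AMOTL2, an angiomotin that binds the junction and YAP and is itself a target of YAP, was at 8058 and 9501, 1962 and 1998, 3811 and 4249, and 7065 and 6115 in the 4 groups in turn. PODXL, the apical sialoprotein podocalyxin, was at 4034 and 2188, 834 and 925, 1941 and 2538, and 3719 and 2028. The siRNAs left AMOTL2 below both isosmotic libraries, and PODXL overlapped them. EZR, ezrin, which anchors podocalyxin to actin, was the paired gene outside the set and was at 37384 and 41193, 24304 and 23661, 33344 and 32931, and 48290 and 45680. It was called lower at 500 mOsm, and against Neg-siRNA (500 mOsm) it was called higher with Nfat5-2-siRNA (edgeR, adjusted p = 0.00495) and not with Nfat5-1-siRNA (edgeR, adjusted p = 0.46). AMOTL2 was also the only member on the list of YAP and TEAD targets, where the other paired genes, CCDC80 and F3, went the opposite way at 500 mOsm. F3, tissue factor, was at 9126 and 10999, 23222 and 43103, 7808 and 7270, and 16287 and 17413.

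In the Wnt and hedgehog list 5 of 7 paired genes were members. The ligand WNT7B was at 1583 and 1623 normalised reads at 300 mOsm, 554 and 663 in Neg-siRNA (500 mOsm), 1246 and 1692 with Nfat5-1-siRNA, and 2548 and 1880 with Nfat5-2-siRNA. Its receptor class is represented by FZD5, a frizzled, with 219 and 208, 88.1 and 88.8, 152 and 266, and 467 and 345. FZD5 shares 74 exonic bases with another gene, and its adjusted p at 500 against 300 mOsm was 0.0512 (edgeR). With Nfat5-2-siRNA both genes were above the isosmotic libraries, and with Nfat5-1-siRNA both straddled them. PRICKLE1, a planar cell polarity protein, was at 3211 and 3039, 1410 and 1556, 4757 and 6418, and 3430 and 4804.

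The atypical small GTPases of the list, RHOU and RHOV, are Wnt-responsive regulators of the actin skeleton. RHOU was at 3137 and 2166 normalised reads at 300 mOsm, 1472 and 1107 in Neg-siRNA (500 mOsm), 3845 and 5380 with Nfat5-1-siRNA, and 4636 and 5517 with Nfat5-2-siRNA. RHOV was at 416 and 435, 192 and 212, 857 and 716, and 445 and 428. PRICKLE1 and RHOU were thus above both isosmotic libraries with either siRNA, whereas RHOV was above them with Nfat5-1-siRNA and overlapped them with Nfat5-2-siRNA. The median share of the fall undone in the 5 genes was 177% and 137%. Outside the set, the hedgehog receptor PTCH1 was at 947 and 986, 535 and 470, 818 and 1091, and 1218 and 1175, and the low gene FZD3 was at 53.2 and 86.2, 7.71 and 22.2, 75.8 and 149, and 89.9 and 139. Of these 2 genes, 1 was called lower at 500 mOsm (9.23% of all genes and 36.9% of those paired), and both were called higher with Nfat5-1-siRNA (3.4% and 23.5%) and with Nfat5-2-siRNA (4.67% and 26.6%).

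The zinc finger genes in the set with a ZNF symbol were ZNF146, ZNF234, ZNF235 and ZNF382, all on chromosome 1, out of 21 ZNF symbols paired. ZNF382 (chr1:116252367-116382167, plus strand) and ZNF146 (chr1:116459377-116460255, minus strand) are neighbours 77209 bases apart with no gene between them. ZNF234 showed the deepest fall, 5.52-fold, from 646 and 598 to 141 and 82.8, and had 278 and 285 with Nfat5-1-siRNA and 549 and 346 with Nfat5-2-siRNA. ZNF235, a near neighbour of a member known only by an identifier, was at 324 and 316, 166 and 94.9, 367 and 489, and 754 and 539. ZNF146 fell 2.36-fold and ZNF382 2.53-fold. Zinc finger genes of such clusters are alike in sequence, and their counts are uncertain where reads could be assigned to either.

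Per kilobase of exon, the highest levels over the 8 libraries belonged to RF01972 and RF01973, RNA family annotations on chromosome 18 with exons of 71 and 69 bases. RF01972 had 74499 and 57722 normalised reads at 300 mOsm, 10352 and 9135 in Neg-siRNA (500 mOsm), 20512 and 17733 with Nfat5-1-siRNA, and 18054 and 20976 with Nfat5-2-siRNA. RF01973 lies 938 bases further on along the same strand, with 1 other gene between, and had 56727 and 48879, 8143 and 8269, 19355 and 14832, and 12345 and 17910. Whether these annotations count parts of 1 transcript was not tested. The next in level, ENSCAFG00000010090, lies 86734 bases after RF01973 on the other strand and had 56323 and 24435, 4107 and 1618, 8699 and 5187, and 9263 and 4531. Of the log2 fall of RF01972, 35.2% and 36.3% was undone, and 33.5% and 33.2% of that of ENSCAFG00000010090. Both genes kept all 4 Nfat5-siRNA libraries between the control groups.

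The further genes with the highest levels per kilobase were GPRC5A, ELF3, ID3, TIMM8B, KRT80, MYC and JPT1. GPRC5A, an orphan receptor induced by retinoic acid, was at 6446 normalised reads per kilobase at 300 mOsm, 2845 in Neg-siRNA (500 mOsm), and 5583 and 5686 with the siRNAs as group means. ELF3, an ETS transcription factor of epithelia, was at 7006, 1512, 5400 and 5344 per kilobase. Its libraries read 16282 and 12080, 3441 and 2680, 10343 and 11518, and 10271 and 11362 normalised reads. ID3, an inhibitor of basic helix-loop-helix factors, was at 4302, 1101, 5242 and 3974 per kilobase, and TIMM8B, a chaperone of mitochondrial protein import, at 3728, 1450, 3405 and 3417. GPRC5A, ELF3 and TIMM8B had nearly equal group means under both siRNAs. KRT80, an epithelial keratin, was at 9326 and 11898 normalised reads at 300 mOsm, 3287 and 3598 in Neg-siRNA (500 mOsm), 5719 and 7136 with Nfat5-1-siRNA, and 11465 and 12180 with Nfat5-2-siRNA.

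Among the deepest falls with a symbol, SH3TC2, a protein of endosomal recycling, went from 879 and 491 normalised reads at 300 mOsm to 25.3 and 58.5, and was at 287 and 285 and at 448 and 212 with the siRNAs. CALHM1, a voltage-gated ion channel subunit, went from 926 and 1042 to 45.2 and 77.7, with 110 and 172 under Nfat5-1-siRNA and 698 and 450 under Nfat5-2-siRNA. SFXN2, a mitochondrial sideroflexin, went from 1520 and 1724 to 127 and 144, with 363 and 329 and then 695 and 561. None of these reached the isosmotic range with either siRNA. The deepest falls of all, of 38.5-fold at most, were in genes known only by an identifier, among them ENSCAFG00000010190 on chromosome 31 with 10798 and 5405, 689 and 295, 3954 and 1588, and 2696 and 1302. Another member known by identifier alone ends 48798 bases before it, with 1 other gene between.

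The largest mean rise was that of SLCO1A2, an uptake carrier for organic anions (chr27:26348490-26396959). It had 353 and 742 normalised reads at 300 mOsm, 29.7 and 103 in Neg-siRNA (500 mOsm), 1375 and 2400 with Nfat5-1-siRNA, and 1390 and 1174 with Nfat5-2-siRNA. The 4 Nfat5-siRNA libraries were above both isosmotic libraries, at 28.0-fold and 19.1-fold over Neg-siRNA (500 mOsm). SORBS2, an adaptor of the actin skeleton, was at 1984 and 926, 166 and 81.8, 1413 and 1328, and 1926 and 1132. Its fall of 11.6-fold was undone by 97.6% and 102%. STBD1, which binds glycogen, was at 505 and 306, 102 and 46.4, 915 and 633, and 427 and 235, above the isosmotic libraries with Nfat5-1-siRNA and overlapping them with Nfat5-2-siRNA.

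How far the siRNAs returned the genes to the isosmotic level varied over the set. The median share of the log2 fall undone was 73.4% with Nfat5-1-siRNA (quartiles 53.3% and 97.7%) and 85.5% with Nfat5-2-siRNA (quartiles 60.9% and 122%). The isosmotic mean was met or exceeded by 34 genes with Nfat5-1-siRNA, by 49 with Nfat5-2-siRNA and by 26 with both, and 85 genes stayed below it with both. Against Neg-siRNA (300 mOsm), edgeR called 33 of the 142 lower and 5 higher with Nfat5-1-siRNA, where 12.2% and 13.2% of all genes were called lower and higher. With Nfat5-2-siRNA it called 24 lower and 11 higher, against 12.9% and 12.7% of all genes. The replicate block raised these counts to 61 lower and 9 higher with Nfat5-1-siRNA (18.1% and 19.3% of all genes) and to 45 lower and 20 higher with Nfat5-2-siRNA (18.9% and 18.9% of all genes). Of the 906 lowered genes outside the set, 780 and 747 were called lower than at 300 mOsm without the block. Since all of these libraries chose the genes, the counts are a description. Without 1 library of the groups compared, 18 to 23 genes were called with Nfat5-1-siRNA and, leaving out any but Nfat5-2-siRNA replicate 1, 20 to 22 with Nfat5-2-siRNA. The 5 called higher with Nfat5-1-siRNA included PRICKLE1, SLCO1A2, RHOV and UGT8, and the 11 called higher with Nfat5-2-siRNA included AKAP12, MYC, RHOU, DLC1, TTLL4, TRIM35, QTRT2 and ST3GAL5. TMEM74, CNGA1, SESTD1, SFXN2, PARP14, TRIB1, DHRS3, IL22RA1, PEX11A, EIF2AK2, RF01972 and RF01973 were among those called lower with both.

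**Figure D3:**
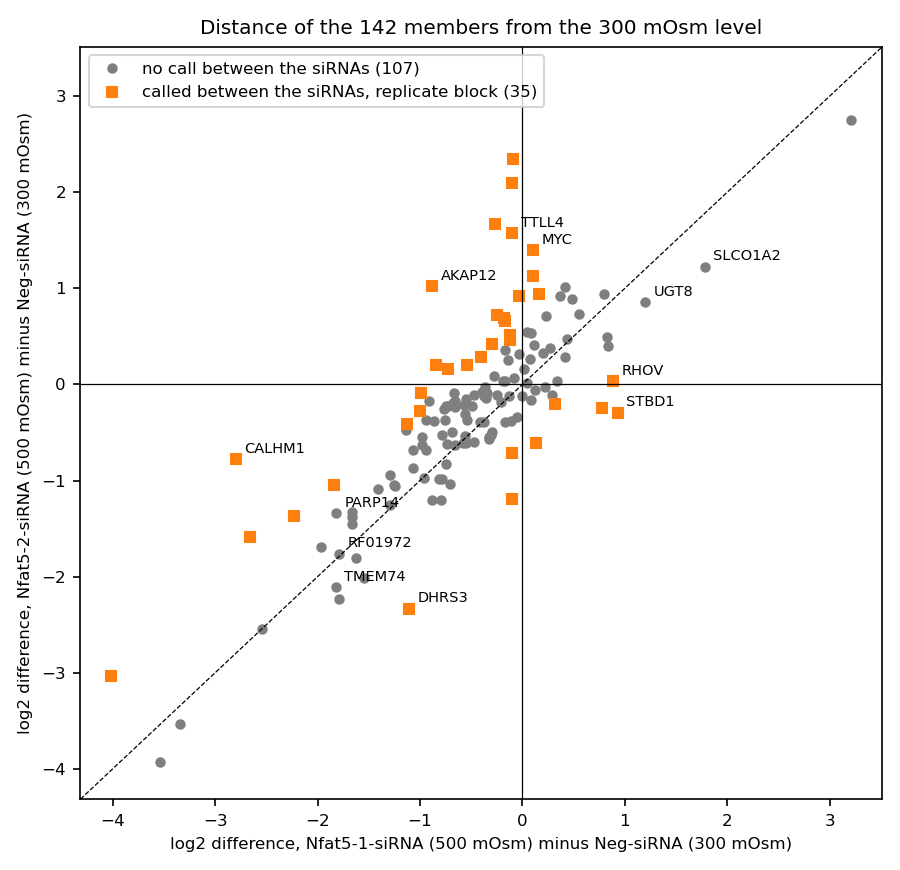
Log2 difference of the mean with Nfat5-1-siRNA (x axis) and with Nfat5-2-siRNA (y axis) from Neg-siRNA (300 mOsm) for the 142 genes, where 0 is the isosmotic level and the dashed line marks equal levels with both siRNAs. The 85 genes below 0 on both axes lie lower left, and the squares mark the 35 genes called between the siRNAs with the replicate block, which lie off the dashed line.

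The rule set no limit on the difference between the siRNAs itself, which was tested. The mean was higher with Nfat5-2-siRNA in 96 genes and higher with Nfat5-1-siRNA in 46. Without the replicate block, edgeR called none of the 142 (0.0403% of all genes, 8 of 19835), and the smallest adjusted p was 0.0517. At an unadjusted p under 0.05 there were 48 of the 142, against 14.9% of all genes, and DESeq2 called 13 of the 142 (1.07% of all genes). With the passage as replicate block, edgeR called 27 higher with Nfat5-2-siRNA and 8 higher with Nfat5-1-siRNA, against 2.39% and 2.55% of all genes. Those were 19% and 5.63% of the 142. Among the 906 other lowered genes, which reach the same level, 7.06% were called in each direction. The 906 include the genes raised past the limit with 1 siRNA only, and the siRNA libraries compared also chose the 142. These shares are therefore a description, and nothing is read from the gap between them. The median log2 difference in this fit was 0.18 over the 142 genes and -0.00368 over all genes tested. All 13 genes called by DESeq2 were among these 35. The level of 400 favoured a higher Nfat5-2-siRNA mean in 9 genes that reached it in that group alone, FZD5 and ENSCAFG00000007247 among them, and 7 of these were among the 27. No gene reached it with Nfat5-1-siRNA alone. In the other 133 genes 20 (15%) were called higher with Nfat5-2-siRNA and 8 higher with Nfat5-1-siRNA, and the median difference was 0.14.

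The difference was largest among genes with a symbol in CALHM1, at 2.03 ± 0.22 (log2, standard error, edgeR with the replicate block, adjusted p = 7.13e-12), and all 4 libraries kept that order. Standard errors and p-values here come from the fit over all 8 libraries, with 2 per group, and do not measure the gap between replicates. Without the block CALHM1 was not called, and its difference ran from 1.66 to 2.35 with 1 Nfat5-siRNA library left out. AKAP12, a scaffold for protein kinases A and C, was at 5881 and 4198 normalised reads at 300 mOsm, 1182 and 794 in Neg-siRNA (500 mOsm), 3209 and 2265 with Nfat5-1-siRNA, and 11919 and 8596 with Nfat5-2-siRNA. The siRNA groups lay on either side of the isosmotic one, 1.88 ± 0.13 apart (edgeR with the block, adjusted p = 4.47e-22, and 0.0517 without it). TTLL4, which adds glutamate chains to tubulin, was at 995 and 867, 391 and 447, 715 and 1023, and 2208 and 3334, with a difference of 1.64 ± 0.16 (edgeR with the block, adjusted p = 1.83e-14). MYC differed by 1.29 ± 0.13 (edgeR with the block, adjusted p = 1.07e-12, and 0.0542 without it). ENSCAFG00000007247 had 225 and 181 with Nfat5-1-siRNA and 1525 and 344 with Nfat5-2-siRNA, a difference of 2.01 ± 0.25 (edgeR with the block). The gap between the Nfat5-2-siRNA libraries was larger than that between the groups in replicate 2. This gene had entered the set through its level with Nfat5-2-siRNA alone, which favoured this direction. No p-value is given for it, and its call with the block is not read as a result. The gene was not called without the block. Without Nfat5-2-siRNA replicate 1, and without the block, its difference went from 2.17 to 0.74.

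In the opposite direction, STBD1 was lower with Nfat5-2-siRNA, with a log2 difference of -1.29 ± 0.20 (edgeR with the block, adjusted p = 4.46e-06). DHRS3, a reductase of retinal, was at 1060 and 820 normalised reads at 300 mOsm, 83.7 and 106 in Neg-siRNA (500 mOsm), 462 and 412 with Nfat5-1-siRNA, and 208 and 164 with Nfat5-2-siRNA. Its difference was -1.26 ± 0.21 (edgeR with the block, adjusted p = 1.51e-05). Part of its exons, 388 bases of 1419, overlap another gene. RHOV differed by -0.88 ± 0.19 (edgeR with the block, adjusted p = 0.00433). Of the nucleolar list 3 of 7 were called higher with Nfat5-2-siRNA with the block (MYC, CD3EAP and RIOX1), of the Wnt list WNT7B higher, RHOV lower and FZD5, which the level favoured, higher, and of the junction list AMOTL2 higher. In that fit 2.39% of all genes were called higher with Nfat5-2-siRNA and 2.55% lower, and 19% and 5.63% of the 142. Differences between the lists were not tested. No antiviral gene of the 7 and no ZNF gene of the 4 was called in that fit, from which nothing is read, since these shares are low and the lists short. Among the antiviral genes the difference ran from -0.22 ± 0.14 in ZC3HAV1 to 0.44 ± 0.17 in PARP14.

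**Figure D4:**
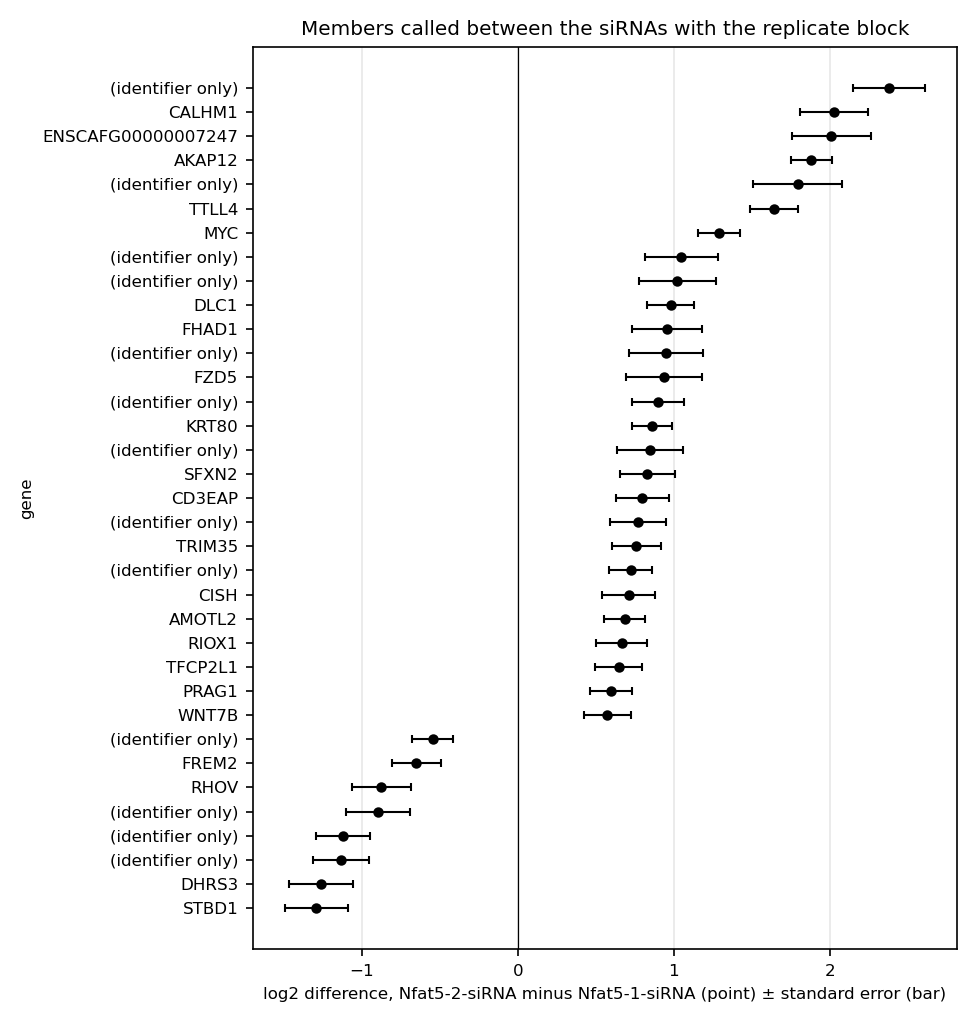
Log2 difference between Nfat5-2-siRNA and Nfat5-1-siRNA at 500 mOsm (points) with its standard error (bars), from edgeR with the replicate block, for the 35 genes called. CALHM1 is the highest gene with a symbol at 2.03 and STBD1 the lowest at -1.29, and genes without a symbol are marked as identifier only apart from the 1 named in the text.

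The passages differed in 17 of the 142 genes, again a comparison the rule had not used. Each passage was used once per group, so passage cannot be told apart from anything else that differed between the replicates. The test takes the 4 groups as repeats, and its p-values do not measure the spread between further cultures of a passage. Over the 4 groups, edgeR called 3 genes higher in passage 17 (1.28% of all genes) and 14 lower (2.02% of all genes). Those were 2.11% and 9.86% of the 142, against 2.87% and 5.96% of the 906 other lowered genes. The median log2 difference was -0.09 over the 142 genes and 0.0026 over all genes. ENSCAFG00000010190 was lower in passage 17 in each of the 4 groups, with a log2 difference of -1.14 ± 0.10, and so was ENSCAFG00000010090 with -1.08 ± 0.09. STBD1 had -0.78 ± 0.15 (edgeR, adjusted p = 0.000678), and CLDN1, SORBS2, STON2, AKAP12 and DLC1 were also called lower. For AKAP12 the difference lay between -0.57 and -0.47 in the 4 groups. ISG15 was higher in passage 17 by 0.51 ± 0.11 (edgeR, adjusted p = 0.0066) and SLCO1A2 by 0.69 ± 0.14 (edgeR, adjusted p = 0.00107), in both with the exception of Nfat5-2-siRNA, where the difference was -0.09 and -0.24. Without either Neg-siRNA (500 mOsm) library, 11 genes were called, all of them among the 17, as were the 11 called by DESeq2. With the filter of filterByExpr 5 of the 17 were called, and STBD1 was not.

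**Figure D5:**
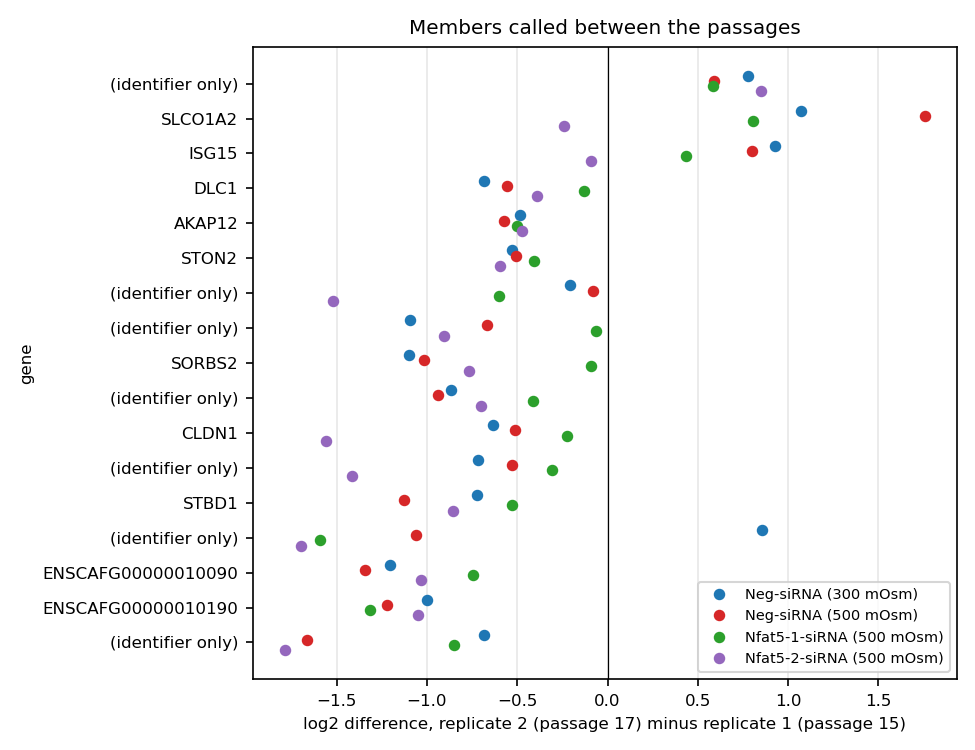
Log2 difference between replicate 2 (passage 17) and replicate 1 (passage 15) within each of the 4 groups (coloured points) for the 17 genes called between the passages. For AKAP12 the 4 points lie close together near -0.5, whereas for CLDN1 the Nfat5-2-siRNA point at -1.56 stands away from the other groups.

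By position, the 142 genes lay on 37 chromosomes, with 11 on chromosome 1. Their median exon length was 2980.5 bases, against 2507 over the 9951 genes at the level and 2306 over the 906 other lowered genes. There were 12 genes with a single exon block, and 7 shared exonic bases with another gene, among them DHRS3, ATPAF1, CD3EAP and FZD5. Apart from the neighbours already named, THNSL1 and PRTFDC1 lay 69377 bases apart on chromosome 2, transcribed away from each other. PRTFDC1 was at 958 and 833 normalised reads at 300 mOsm, 264 and 292 in Neg-siRNA (500 mOsm), 460 and 469 with Nfat5-1-siRNA, and 759 and 627 with Nfat5-2-siRNA. THNSL1 was at 1692 and 1592, 522 and 570, 1607 and 1879, and 1234 and 1706, so that the order of the siRNA means was opposite in these neighbours, with overlapping libraries in THNSL1.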

How the data were processed

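The authors deposited 1 table of raw read counts per gene. They aligned the paired-end reads with HISAT2 2.0.5 to CanFam 3.1 and counted them with featureCounts 1.5.1 over Ensembl 92 exons, ignoring strand (option 0) and, per the file header, with no option to count pairs as fragments. Counts were divided by median-of-ratios size factors (0.823 to 1.14) for levels and for the rule. Tests used edgeR 4.0.16 (R 4.3.3) quasi-likelihood fits of all 8 libraries with TMM scaling on 19835 genes whose counts summed to 5 or more, two-sided, with Benjamini-Yekutieli adjustment over all genes and a threshold of 0.05; DESeq2 1.42.0 was an alternative. The siRNA difference without the block and the passage term were run on simulated data, and the siRNA difference with the block was not. Nothing is read from that run here. Across 13420 genes, deviations of same-numbered replicates correlated in all 6 pairs of groups (r 0.101 to 0.398), and the labels give the passage, so the numbers pair the samples.

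Genes, lists and tests were chosen with earlier results of these data known. The genes named were list members, the 10 highest per kilobase, the 10 with the largest fall, rise or difference between siRNAs, the 5 between passages, those at the limits and neighbours within 100 kb. At most 3 genes without a symbol were named, by the identifier. Other genes of a count of 5 or fewer were added with their values seen, as were UGT8 and the further genes called in the same comparison. Symbols came from the 860 that the study pairs with identifiers, so markers other than AQP1, most list genes and promoters were not analysed here. The values of 1 gene of the interferon list are not reported here. No library was left out.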

Additional observations from a re-analysis of the deposited data

Results flagged for a closer look

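Of the 35 genes called between the siRNAs by a test of the difference itself, edgeR with the replicate block, 7 named genes were among the 10 with the largest difference. The log2 difference, Nfat5-2-siRNA minus Nfat5-1-siRNA, was 2.03 for CALHM1, 2.01 for ENSCAFG00000007247, 1.88 for AKAP12, 1.64 for TTLL4, 1.29 for MYC, -1.26 for DHRS3 and -1.29 for STBD1. ENSCAFG00000007247 had entered the set through its level with Nfat5-2-siRNA alone, which favoured this direction, so its call is not read as a result. In the fit without the block none of them passed an adjusted p of 0.05. ENSCAFG00000007247 and STBD1 were also not called with DESeq2 or the Benjamini-Hochberg adjustment, each without the block, while the other 5 were. Without Nfat5-2-siRNA replicate 1 the log2 difference of ENSCAFG00000007247 in the fit without the block went from 2.17 to 0.74. STBD1 and AKAP12 were also called between the passages.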

How the results depend on the processing

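All of these genes reached a mean of 400 normalised reads in a group, and the limits are 2 libraries a group and a choice of genes made on the same data. The number of genes in the set was 142 and became 91 with a level of 800, 194 with a level of 200, and 134 to 207 when 1 library was left out. When the rule was applied to 1 passage and read in the other, as was chosen after seeing the data, 94 and 88 genes passed again.

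Between the siRNAs, where 0 genes were called, the replicate block gave 35, DESeq2 13, no filter on low counts 15, the Benjamini-Hochberg adjustment 9 and the size factors of DESeq2 3, and leaving out 1 library gave 0 to 2 (2 without Neg-siRNA (300 mOsm) replicate 1, 1 without Nfat5-2-siRNA replicate 2). The 17 calls between the passages became 5 with the filter of filterByExpr, 26 with the Benjamini-Hochberg adjustment, 11 with DESeq2 and 11 to 18 with 1 library left out. Against Neg-siRNA (300 mOsm), the 38 calls with Nfat5-1-siRNA became 65 with the Benjamini-Hochberg adjustment, 70 with the replicate block and 18 to 39 with 1 library left out. The 35 calls with Nfat5-2-siRNA became 53 without a filter, 65 with that adjustment, 65 with the block and 20 to 32 with 1 library left out. Against Neg-siRNA (500 mOsm), the 80 calls with Nfat5-1-siRNA became 131 with the Benjamini-Hochberg adjustment, 138 with the block and 17 to 89 with 1 library left out, and the 105 with Nfat5-2-siRNA became 67 to 112. The cause of these shifts was not tested, other than that fewer libraries entered the fits that left 1 out. The 132 calls of the osmotic fall were 102 to 133 with 1 library left out, and no alternative moved them by over 1.5 times. Of the single genes refitted under the alternatives, the 10 with the largest difference between the siRNAs and the 5 between the passages, none changed direction. Of the 5 passage differences, STBD1 was no longer called with filterByExpr (-0.78). A gene known only by an identifier was no longer called with filterByExpr, with DESeq2 or without any 1 of the 6 libraries at 500 mOsm, and its log2 difference of -0.82 lay between -1.51 and -0.46 with 1 library left out. The pairing by replicate number was used as given by the passages, and the block changed no other count by over 1.5 times.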
